A study of Mus musculus with 32 samples.

Results

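The genes described here encode subunits of NMDA and AMPA receptors, the ligand-gated ion channels that carry most fast excitatory transmission between brain neurons. They were chosen by symbol, 6 NMDA receptor genes (Grin1, Grin2a, Grin2b, Grin2c, Grin2d and Grin3a) and 4 AMPA receptor genes (Gria1 to Gria4), and make up 10 of the 40392 genes in the deposited table. All 10 were among the 23778 genes that passed the expression filter and were tested. Polyadenylated RNA was sequenced from the basolateral amygdala of mice, a nucleus central to learned fear, in 32 libraries. The 8 groups of 4 libraries were adolescent controls at day 1, adolescent controls at day 21, socially defeated adolescents at day 1, socially defeated adolescents at day 21, and the same 4 groups of adults. Social defeat stresses a mouse through encounters with an aggressive one. Ages of 6 and 9 weeks appear in the submitters' design text, but neither is tied to an age class, and the sources used here give neither the event from which the days count nor the strain or any allele. The labels do not state whether each library is a different animal; p-values therefore measure only the spread between these samples, which may be technical.

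An NMDA receptor needs the obligatory subunit GluN1, made from Grin1, together with GluN2 or GluN3 subunits that set its kinetics, its block by magnesium and its partners in the synapse. AMPA receptors are assembled from GluA1 to GluA4, made from Gria1 to Gria4, and GluA2 makes the channel nearly impermeable to calcium once its mRNA has been edited. In the amygdala both receptor types take part in the synaptic plasticity that underlies learned fear, and the exchange of GluN2B for GluN2A during postnatal life is a well known step in the maturation of forebrain synapses.

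The coding stretch that lines the pore is where these families differ in the residue that sets ion flow, and it is shown to place the genes beside each other. Sequences are from GENCODE M21 on GRCm38, 45 bases each on the coding strand of the longest coding transcript. In the AMPA receptor genes the capitals mark the glutamine codon of the Q/R site, which in Gria2 mRNA is edited to read as arginine.
Gria1: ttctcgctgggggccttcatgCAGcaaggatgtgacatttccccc
Gria2: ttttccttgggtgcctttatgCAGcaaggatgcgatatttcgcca
Gria3: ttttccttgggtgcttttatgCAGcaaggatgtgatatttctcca
Gria4: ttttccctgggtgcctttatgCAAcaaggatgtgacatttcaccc
The Gria2 stretch lies at chr3:80706890-80706934 on the minus strand, within exon 11, and the marked triplet is codon 607. Gria2 and Gria3 were identical at 42 of the 45 bases, and Gria1 and Gria2 at 36.

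In the NMDA receptor genes the capitals mark the asparagine codon of Grin1 and the pair of adjoining asparagine codons of the GluN2 genes shown, the residues on which magnesium block depends.
Grin1: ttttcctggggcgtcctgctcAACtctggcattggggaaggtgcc
Grin2a: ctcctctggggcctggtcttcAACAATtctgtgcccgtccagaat
Grin2c: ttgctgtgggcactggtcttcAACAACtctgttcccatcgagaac
Grin2d: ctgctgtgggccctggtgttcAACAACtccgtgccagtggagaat
The Grin1 stretch lies on the minus strand within chr2:25297292-25297409 and spans 2 exons, and its marked triplet is codon 637. Pairs of the GluN2 stretches shown were identical at 35 to 36 of the 45 bases, whereas Grin1 matched them at 17 to 18. The counts analysed are per gene, so they show neither editing nor splice forms, and the sources used here do not say how reads mapping to several genes were counted.

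Levels of different genes were compared in FPKM, which divides fragments by the length of the gene model and by depth. Gria1 was highest on the FPKM scale at 77.0 ± 5.42 (SD, n = 32 libraries). Grin1 followed with a mean of 48.7 FPKM, then Gria2 with 32.9, Gria3 with 22.3 and Gria4 with 14.4 FPKM. The GluN2 and GluN3 genes were lower in FPKM, with Grin2c at 13.3, Grin2b at 9.87, Grin2a at 5.74, Grin2d at 4.72 and Grin3a at 4.10. From Gria1 down to Gria4, and again between Grin2b and Grin2a, the ranges of neighbouring genes over the 32 libraries did not overlap. The other neighbours did overlap: Gria4 exceeded Grin2c in 24 of 32 libraries, Grin2c exceeded Grin2b in 30, and Grin2a exceeded Grin2d in 28, as did Grin2d over Grin3a.

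**Figure D1:**
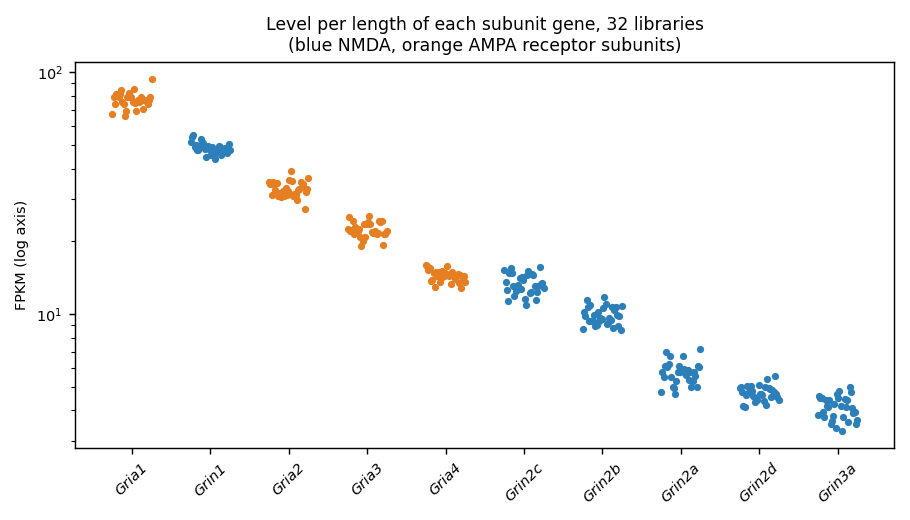
Level of each receptor subunit gene in FPKM on a log axis, with one point per library (32 per gene), NMDA receptor genes in blue and AMPA receptor genes in orange. Gria1 lies between 66.2 and 93.5 FPKM in every library, and Grin3a between 3.30 and 4.98.

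That order rests on the gene length used for FPKM, which the ratio of CPM to FPKM puts at 26.8 kb for Grin2b, 16.8 kb for Gria2 and 5.44 kb for Grin2c. CPM scales counts to a common library size with TMM factors and takes no account of length. On the CPM scale Gria2 was highest at 552 ± 36.0 (SD, n = 32), with Grin1 at 510 and Gria1 at 503, and Grin2b at 265 CPM stood above Grin2c at 72.7. Among the GluN2 genes, Grin2c held 39.6% ± 2.92 of the summed FPKM (SD, n = 32) but 15.1% of the summed CPM, and Grin2b held 29.3% of the FPKM and 54.8% of the CPM. Which GluN2 transcript is most abundant per molecule therefore depends on the length assumed, and no order of Grin2b and Grin2c is drawn from these files. Among the AMPA receptor genes, Gria1 held 52.5% ± 1.90 of the summed FPKM, Gria2 22.4%, Gria3 15.2% and Gria4 9.85%. On the CPM scale Gria2 held the highest share, 39.7%, and Gria1 36.2%, so their order also depends on the length used.

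Within the 32 libraries each gene varied little. The coefficient of variation of CPM over all libraries ran from 5.00% for Gria4 to 10.5% for Grin3a. Group means of 1 gene differed by at most 1.278-fold, for Grin2a, and by as little as 1.092-fold, for Grin2d. In the order of the 8 groups, the mean ± SD ranges of every pair of neighbours overlapped for each of the 10 genes. The highest and the lowest group were apart by that measure for Grin1, Grin2a, Grin2c, Gria3 and Gria4, and overlapped for the other 5. Between 1751 and 44545 counts per gene and library lay behind these values.

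**Figure D2:**
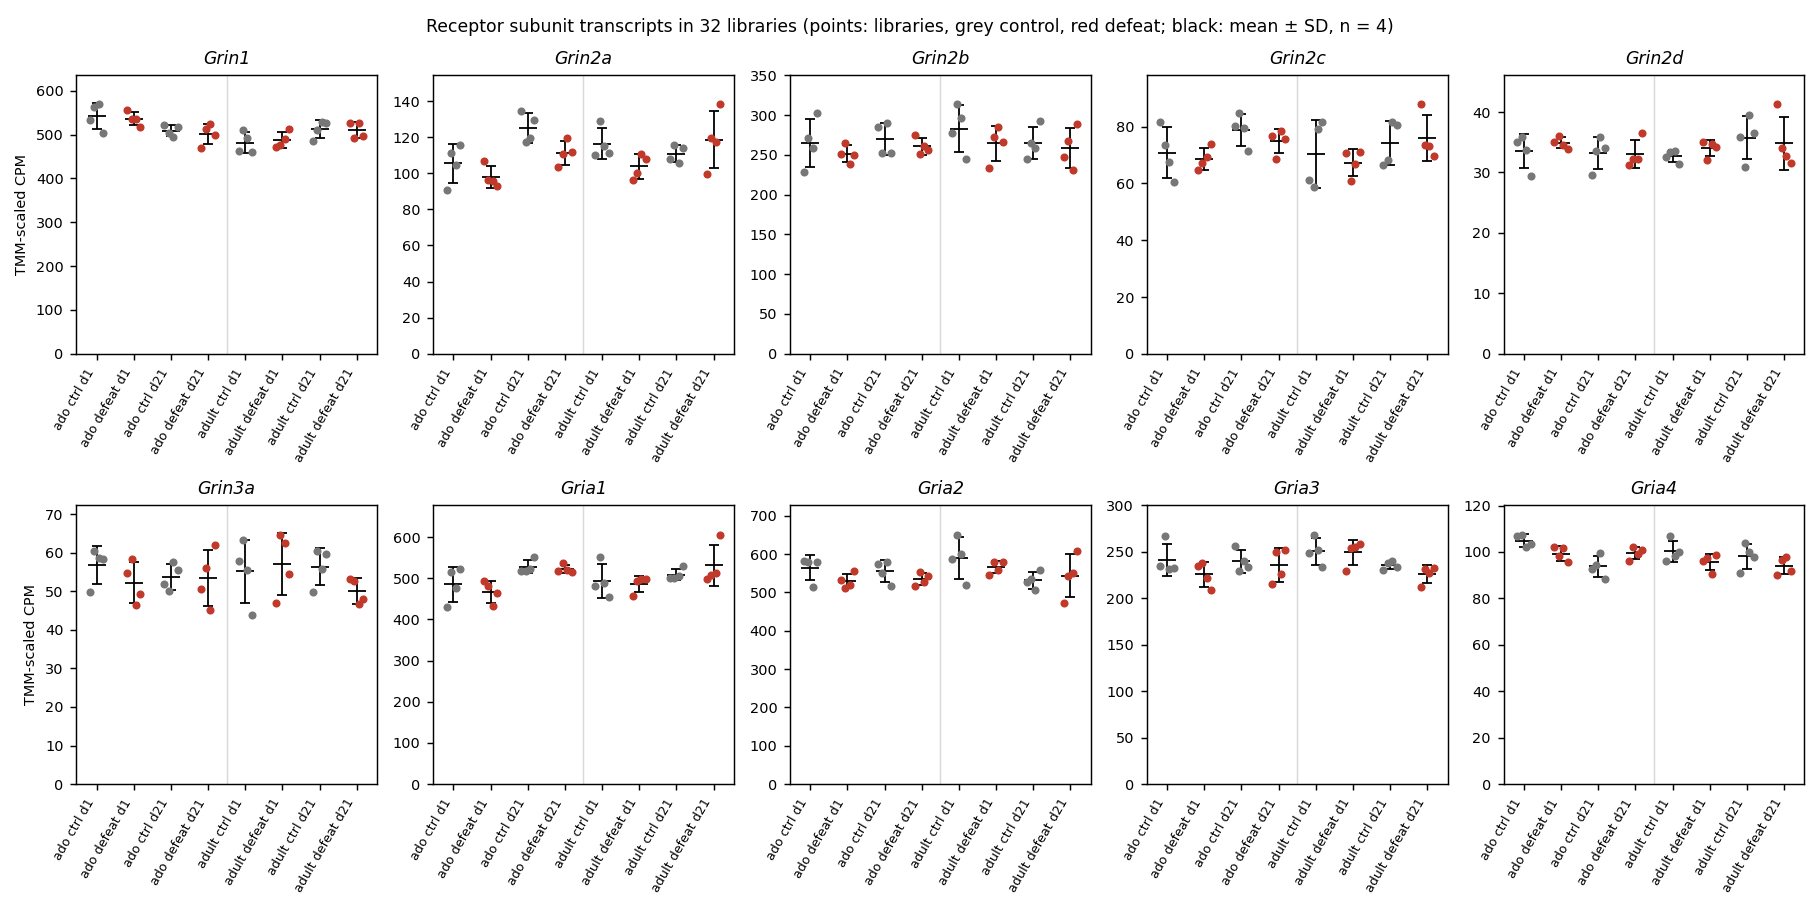
TMM-scaled CPM of the 10 receptor subunit genes in each library, by group, with axes from 0; points are libraries (grey control, red defeat) and black bars give mean ± SD (n = 4). Grin2a ranges from 90.8 to 138 CPM over all libraries and Grin1 from 461 to 569.

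Each library held between 53885799 and 82208892 counts, with 26502 to 28008 genes detected. Markers of pallial excitatory neurons, the principal cells of the basolateral amygdala, were present in every library (11 of 11 tested; summed 1316 to 1986 CPM). Markers of striatum and central amygdala, which lie next to it, were present as well, with a sum of 2124 to 4264 CPM over 14 genes. Ttr, a transcript of choroid plexus epithelium, ran from 1.07 to 2342 CPM, and 11 libraries exceeded 100 CPM. In such bulk tissue fewer cells of a type and less RNA per cell cannot be told apart.

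Social defeat was set against control within each age class and day, the comparison the study is built on. None of the 10 genes passed the threshold (adjusted p under 0.05, edgeR's quasi-likelihood test with Benjamini-Hochberg adjustment over 23778 genes) in any of the 4 comparisons. The share of all tested genes that passed was 0.0547% for adolescents at day 1 and 0.0126% at day 21, and for adults 0.353% at day 1 and 0.00841% at day 21. The lowest adjusted p of a receptor gene was 0.496 (edgeR), for Grin2a in adults at day 1. No receptor gene had non-overlapping control and defeat groups, although some of all tested genes did: wholly higher after defeat were 2.64% and 1.92% in adolescents at day 1 and day 21 and 3.07% and 1.99% in adults, and wholly lower were 2.16%, 1.94%, 2.35% and 1.90% in the same order.

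The 40 fitted log2 changes ran from -0.17 to 0.10, and the widest 95% interval, that of Grin3a in adults at day 21, allowed a change of up to 1.304-fold. For Grin1 no interval allowed more than 1.081-fold, and for Gria1, Gria2, Gria3 and Gria4 the limits were 1.138-fold, 1.160-fold, 1.157-fold and 1.129-fold. These intervals bound the size of a defeat effect in these libraries and do not show that it was 0. Values below 0 were the majority: 9 of 10 genes in adolescents at day 1 and at day 21, 7 in adults at day 1 and 6 in adults at day 21. Over all tested genes the medians were near 0 in the same comparisons, at -0.0031, 0.0027, -0.0040 and 0.00012, while those of the receptor genes were -0.08, -0.02, -0.04 and -0.02 on the log2 scale. In adults at day 21 the count of genes below 0 was 4 to 6 of 10 in the alternatives that kept all 10 genes, those leaving out 1 library aside.

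Grin2a, which encodes the GluN2A subunit that gives NMDA receptors fast kinetics, had the 2 defeat intervals, of 40, that excluded 0 before adjustment. An unadjusted p under 0.05 (edgeR) was reached by 7.45% and 5.72% of all tested genes in adolescents at day 1 and day 21. In adults the shares were 9.51% and 6.46%, so the 2 intervals do not set the receptor genes apart. In adolescents at day 21 the levels of Grin2a were 134.5, 117.1, 119.5 and 129.7 CPM in controls and 103.3, 110.9, 119.3 and 111.6 CPM after defeat. The defeat libraries were the lower ones, but their highest lay above the lowest control. The log2 change was -0.17 ± 0.08 (SE), with an adjusted p of 0.840 (edgeR). In adults at day 1 the controls held 110.3, 128.7, 115.0 and 111.1 CPM and the defeat libraries 96.2, 100.2, 110.9 and 107.7 CPM. Here too only the highest defeat library overlapped the controls, and the log2 change was -0.16 ± 0.08 (SE; adjusted p = 0.496, edgeR). In adults at day 21 the sign was positive, at 0.10, with 99.8 to 138 CPM after defeat and 105.7 to 115.4 CPM in controls.

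Averaged over the 4 comparisons, the defeat change of Grin2a was -0.09 ± 0.04 (SE) with an adjusted p of 0.547 (edgeR), and 0 of the 10 genes passed, as against 0.0589% of all tested genes. Gria4, which encodes a fast-gating AMPA receptor subunit, was 0.09 above controls in adolescents at day 21 and 0.08, 0.07 and 0.06 below them in the other 3 comparisons on the log2 scale, none past the test. Grin2d, a GluN2 gene expressed by many interneurons, was the only receptor gene with a positive mean over the 4 comparisons, at 0.02.

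**Figure D3:**
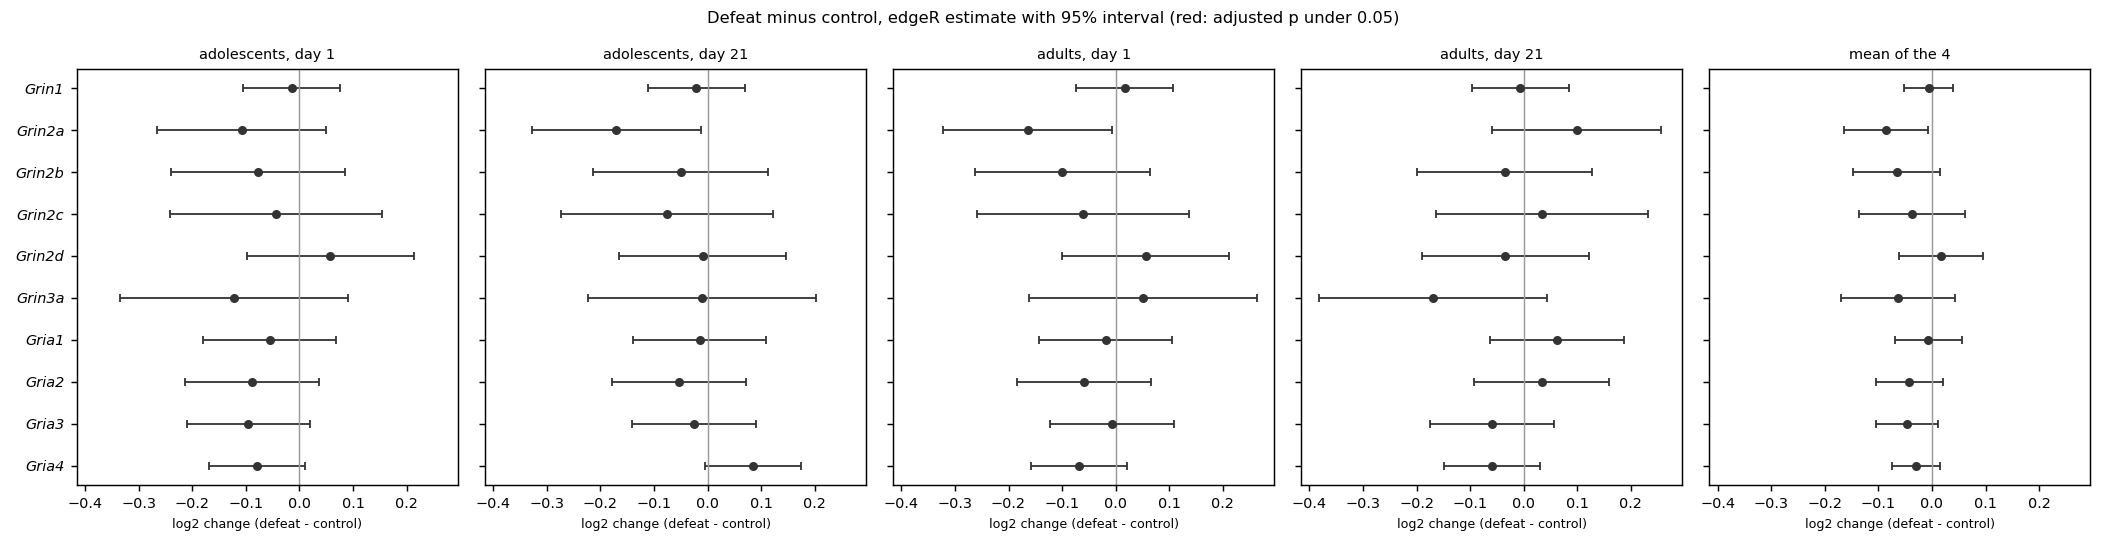
Log2 change after social defeat (defeat minus control) of the 10 genes in each age class and day and averaged over the 4, with 95% intervals from edgeR. No gene passed an adjusted p of 0.05, and the estimates lie between -0.17 and 0.10.

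Markers of other tissue moved with these contrasts. In adolescents at day 1 all 11 choroid plexus markers and all 5 tested blood markers were above 0 after defeat (median log2 differences 1.65 and 0.80), and the choroid plexus sum was 1541 to 2077 CPM after defeat and 202 to 1783 CPM in controls. All 11 pallial excitatory markers were below 0 there (median -0.12) and all 14 striatal and central amygdala markers above 0 (median 0.15), with none past the test. In adults at day 21, 10 of 11 pallial markers were below 0 and all 14 striatal markers above 0, with medians of -0.12 and 0.24. With 3 marker scores (choroid plexus, striatum with central amygdala, and myelin) added to the fit, 0 of the 10 receptor genes passed in each defeat comparison, and the median receptor gene in adolescents at day 1 was -0.04 in place of -0.08 on the log2 scale. In adolescents at day 1 that fit left 9 of 10 receptor genes below 0, as did the main fit. In adolescents at day 21 the same fit put 6 of 10 receptor genes below 0 in place of 9, with a median of -0.0061 in place of -0.0234. The astrocyte score as covariate, a setting chosen after seeing the data, gave adolescent medians of -0.0935 at day 1 and -0.0611 at day 21. Its medians in adults were -0.0306 and 0.0232. The part of other tissue in these values was not tested.

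Whether defeat acted differently between age classes or days was tested with interaction terms. No receptor gene passed in the age class by defeat term at day 1 (0.0168% of all tested genes passed) or day 21 (0.0252%), nor in the day by defeat term in adolescents (0.00421%) or adults (0.622%). The lowest adjusted p at day 21 and in adults belonged to Grin2a. Its defeat change in adults exceeded that in adolescents at day 21 by 0.27 ± 0.11 (SE, log2; adjusted p = 0.588, edgeR), and in adults it was 0.26 ± 0.11 higher at day 21 than at day 1 (adjusted p = 0.356, edgeR). The term for Gria4 in adolescents was 0.16 ± 0.06 (adjusted p = 0.883, edgeR). These terms share libraries with the defeat comparisons above, so they are no separate evidence.

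Age class was compared in controls and averaged over treatment and day. Grin1 was the only receptor gene to pass. At day 1 its levels were 532.2, 563.0, 568.6 and 503.4 CPM in adolescent controls and 463.5, 509.7, 492.0 and 461.0 CPM in adult controls. The adult libraries were lower, although the highest of them exceeded the lowest adolescent library. Grin1 was lower in adults by a log2 change of -0.17 ± 0.04 (SE; 0.89-fold; adjusted p = 0.0234, edgeR), in a comparison in which 4.38% of all tested genes passed. The call was lost when only the groups compared were fitted (log2 -0.17; adjusted p = 0.193, edgeR), without the libraries above 100 CPM of Ttr (-0.13; adjusted p = 0.353), and in 4 of the 8 fits that left out 1 library (highest adjusted p = 0.1003, without adolescent control day 1 replicate 3). The groups alone called 1.39% of the genes tested there, and the fit without the libraries high in Ttr 0.764%. Over the 12 other settings the log2 change ran from -0.21 to -0.13, and 10 of them kept the call.

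At day 21 Grin1 stood at 521.8, 503.1, 493.9 and 516.5 CPM in adolescent controls and 485.6, 511.2, 528.1 and 526.3 CPM in adult controls. These groups overlapped, with a log2 change of 0.01 ± 0.04 (SE), and 0 of the 10 genes passed beside 6.06% of all tested genes. After defeat, Grin1 was at 536 ± 15.6 CPM in adolescents and 487 ± 18.4 CPM in adults at day 1 (SD, n = 4 each), and at 501 ± 23.6 and 510 ± 18.6 CPM at day 21. Averaged over the 4 strata the change was -0.07 ± 0.02 (SE, log2; adjusted p = 0.0252, edgeR), while 23.0% of all tested genes passed in that comparison. Leaving out 1 library in turn kept that call in 27 of 32 fits.

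Grin1 (ENSMUSG00000026959) is listed on chromosome 2 from 25181193 to 25209199 on the minus strand, with the genome build not stated. The table also holds Grin1os on the opposite strand there, with a mean of 1213 counts per library. The sources used here do not say whether counting used strand, so reads of the 2 genes cannot be told apart with certainty. Grin1os was itself lower in adults over the 4 strata, by a log2 change of -0.24 ± 0.06 (SE; adjusted p = 0.00323, edgeR). Its counts are few beside the 26234 to 44545 of Grin1. Grin2d likewise overlaps Gm45441, with a mean of 438 counts, and no comparison called Gm45441.

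The other receptor genes did not pass in either comparison of controls by age class. Grin2a at day 21 was the only one whose groups did not overlap, with 117.1 to 134.5 CPM in adolescents and 105.7 to 115.4 CPM in adults; 5.45% of all tested genes were likewise wholly lower in adults. Its log2 change was -0.18 ± 0.08 (SE; adjusted p = 0.195, edgeR), and at day 1 it was 0.14 in the other direction (adjusted p = 0.381, edgeR). The median absolute log2 difference of the receptor genes was 0.06 at day 1 and 0.06 at day 21, beside 0.15 and 0.16 over all tested genes. The tested genes were not matched to the receptor genes by level or spread, so these medians do not show the receptor genes to be unusually stable. In the day 1 comparison 9 of 10 myelin markers were below 0 in adults with 1 past the test (median -0.38), and 9 of 11 markers of neocortex layers and claustrum were below 0, also with 1 past the test. Vessel marker sums there were 263.3 to 308.9 CPM in adolescents and 206.8 to 285.3 CPM in adults. Blood marker sums were 92.26 to 160.9 and 57.03 to 167.6 CPM. With the 3 marker scores in the fit the change of Grin1 at day 1 was -0.21 (adjusted p = 0.00197, edgeR). That fit called 4.71% of all tested genes and held no vessel or blood score, and the part of those tissues was not tested.

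Day 21 was set against day 1 within each age class. In adolescents, averaged over treatments, Grin2a was the only receptor gene to pass. At day 1 it stood at 90.8, 111.3, 104.5 and 115.6 CPM in controls and 106.8, 96.3, 95.8 and 92.9 CPM after defeat. At day 21 the control values were 134.5, 117.1, 119.5 and 129.7 CPM, all above those of day 1, and the defeat values 103.3, 110.9, 119.3 and 111.6 CPM overlapped those of day 1 through their lowest library. Grin2a rose by 0.22 ± 0.05 (SE, log2; 1.161-fold; adjusted p = 0.0195, edgeR), in a comparison in which 4.32% of all tested genes passed. The table lists it on chromosome 16 from 9385762 to 9813424 on the minus strand, and no other listed gene overlaps it.

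That call did not hold in every alternative. The adjusted p of Grin2a was 0.0612 with the Ttr level as a covariate and 0.712 with the 3 marker scores, where the log2 change was 0.15. Those fits called 2.24% and 0.13% of all tested genes, so most calls of the main fit were lost with the 3 scores. The adjusted p of Grin2a was 0.0508 without adolescent defeat day 21 replicate 3, and the other 15 fits that left out 1 library kept the call. In the same comparison 9 of 10 myelin markers were lower at day 21 and past the test (median log2 change of the 10, -0.66), with a summed level of 8364 to 12500 CPM at day 1 and 6182 to 7274 CPM at day 21 in controls. Of 11 markers of neocortex layers and claustrum, 5 were lower and past the test, and their sum in controls was 697 to 726 CPM at day 1 and 551 to 649 CPM at day 21. All 11 choroid plexus markers were below 0 (median -1.44), with none past the test.

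In adolescent controls alone no receptor gene passed, as against 0.925% of all tested genes. Grin2a was wholly higher at day 21, which held for 3.16% of all tested genes, with a log2 change of 0.25 ± 0.08 (SE; adjusted p = 0.127, edgeR). Gria4 was at 106.8, 107.4, 102.0 and 103.4 CPM at day 1 and 92.5, 94.4, 99.7 and 88.4 CPM at day 21. The 2 sets did not overlap, as for 3.95% of all tested genes in that direction, and the log2 change was -0.16 ± 0.04 (SE; adjusted p = 0.0688, edgeR). DESeq2 called both genes in this comparison, with adjusted p of 0.0377 for Grin2a and 0.0230 for Gria4. It called 2.44% of all tested genes there, as against 0.925% with edgeR.

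Gria1 and Grin1 came close to the threshold in adolescents over both treatments. Gria1, which encodes the GluA1 subunit that is brought to synapses during potentiation, was at 429.8 to 522.2 CPM at day 1 and 517.5 to 551.3 CPM at day 21 in controls, where 1 day 1 library lay among those of day 21. After defeat it was at 431.8 to 493.2 CPM at day 1 and 515.1 to 536.0 CPM at day 21. The log2 change over both treatments was 0.14 ± 0.04 (SE; adjusted p = 0.0593, edgeR). For Grin1 it was -0.09 ± 0.03 (SE; adjusted p = 0.0896, edgeR). DESeq2 called both, with adjusted p of 0.0163 and 0.0490, but also 6.32% of all tested genes, as against 4.32% with edgeR. Over 11 alternative settings, those leaving out 1 library aside, Gria1 ran from 0.09 to 0.17 on the log2 scale and passed in 6 (highest adjusted p = 0.814), and Grin1 ran from -0.20 to -0.08 and passed in 5. With the 3 marker scores in the fit Grin1 passed (-0.20; adjusted p = 0.0438, edgeR), while Grin2a and Gria1 did not. That fit called 0.13% of all tested genes. Before adjustment, 5 of the 10 genes had a p under 0.05 in this comparison, as did 16.7% of all tested genes.

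Adults gave no receptor call between days, in controls (0.858% of all tested genes passed) or averaged over treatments (1.72%). An unadjusted p under 0.05 was reached by 3 of the 10 genes over both treatments, beside 16.3% of all tested genes. The lowest adjusted p was that of Gria3, an X-linked AMPA receptor gene listed from 40489731 to 40765469 on the plus strand. Its levels at day 1 were 248.3, 268.2, 251.5 and 233.3 CPM in controls and 229.3, 253.8, 255.0 and 258.4 CPM after defeat. At day 21 they were 230.5, 237.4, 239.5 and 233.4 CPM in controls and 212.2, 231.1, 227.3 and 232.6 CPM after defeat. The day 21 libraries were mostly lower but overlapped those of day 1, and the log2 change was -0.12 ± 0.04 (SE; adjusted p = 0.124, edgeR). In this comparison 6 of 10 vessel markers were higher and past the test and 4 of 10 myelin markers lower and past it, and the part of the vessel markers in the receptor values was not tested.

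The difference between the age classes in their day change was tested directly. It passed for 0 of the 10 genes and for 0% of all 23778 tested genes, of which 2012, or 8.46%, had an unadjusted p under 0.05, as did 2 of the 10. Grin1 had the largest term of the receptor genes, 0.17 ± 0.04 (SE, log2; unadjusted p = 0.000518, adjusted p = 0.169, edgeR), with a day change of -0.09 in adolescents and 0.08 in adults. With the 3 marker scores in the fit these day changes were -0.20 and -0.014, so the adult one turned sign, and the term was 0.19 (adjusted p = 0.0337, edgeR). That fit called 0.135% of all tested genes for this term. DESeq2 gave the Grin1 term an adjusted p of 0.0393 and called 0.357% of all tested genes.

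**Figure D4:**
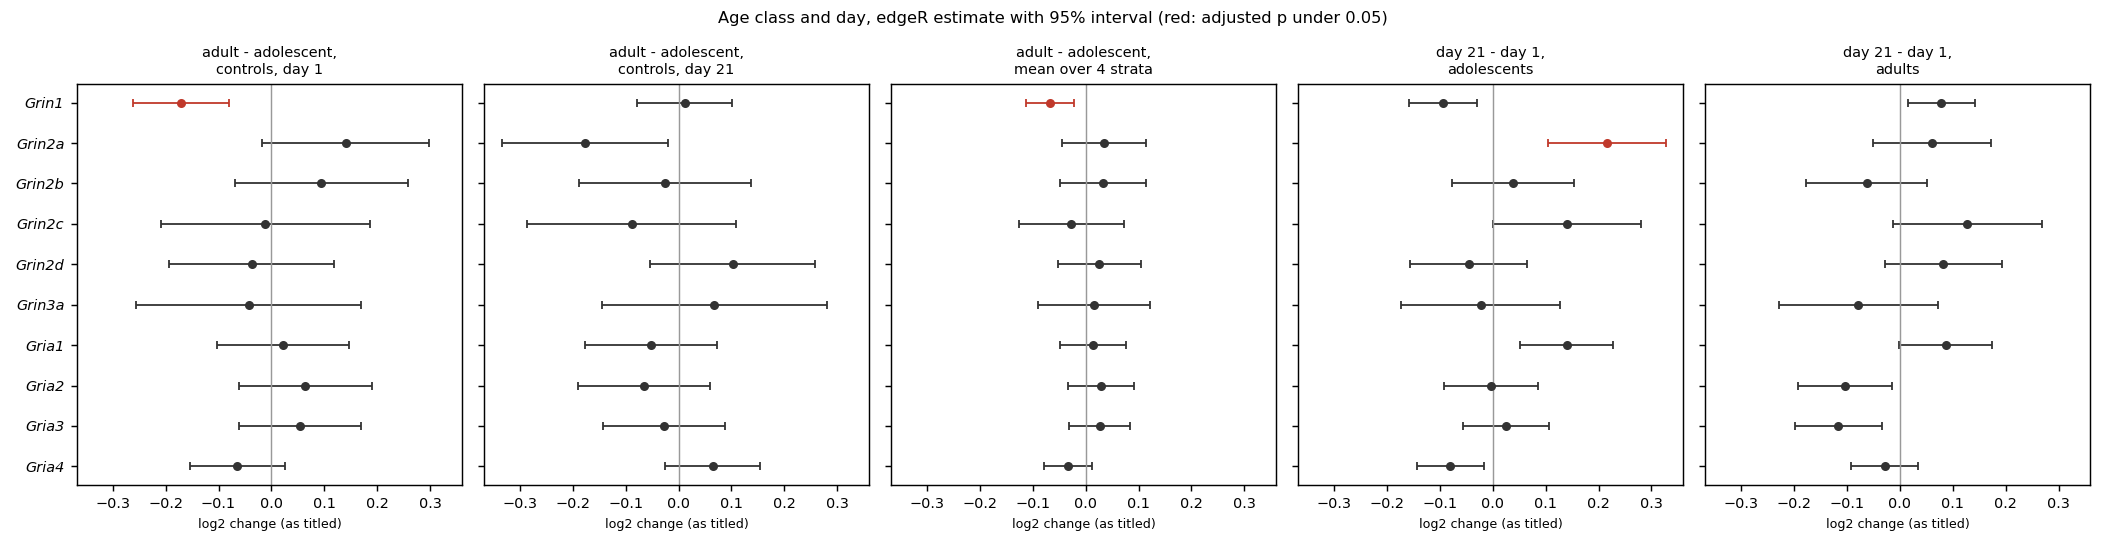
Log2 differences of the 10 genes between age classes (adult minus adolescent) and between days (day 21 minus day 1), with 95% intervals from edgeR and values past an adjusted p of 0.05 in red. Grin1 is red for age class in day 1 controls and over the 4 strata, and Grin2a is red for day in adolescents.

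Ratios of subunits within a library do not depend on its scaling. The log2 ratio of Grin2a to Grin2b on the FPKM scale was -0.79 ± 0.13 over the 32 libraries (SD). In adolescent controls it was -0.86 ± 0.04 at day 1 and -0.64 ± 0.13 at day 21 (SD, n = 4 each), with all 4 day 21 libraries above all 4 of day 1. Adolescent defeat libraries were at -0.89 ± 0.10 and -0.76 ± 0.13, and adult controls at -0.81 ± 0.10 and -0.79 ± 0.08, with overlap between days in both. Adult defeat libraries were at -0.88 ± 0.07 at day 1 and -0.66 ± 0.14 at day 21, again with overlap.

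The log2 ratio of Gria1 to Gria2 was higher at day 21 than at day 1 by group mean in all 4 strata. In adult controls it was 1.11 ± 0.05 at day 1 and 1.30 ± 0.04 at day 21, and in defeated adults 1.15 ± 0.04 and 1.33 ± 0.09 (SD, n = 4 each, FPKM scale). In defeated adolescents it was 1.18 ± 0.09 and 1.33 ± 0.03, and in adolescent controls 1.15 ± 0.15 and 1.29 ± 0.11. The 2 days did not overlap in these libraries except in adolescent controls, where day 1 replicate 3, at 1.252, lay above the lowest day 21 library at 1.214. In adolescent controls the Gria4 to Gria2 ratio was wholly lower at day 21, at -1.33 to -1.24, than at day 1, at -1.19 to -1.03. Its days overlapped in the other strata. The remaining ratios, of Grin2c and Grin2d to Grin2b and of Gria3 to Gria2, overlapped between days in all 4 strata. No test was run on the ratios, and no share over other gene pairs was computed. Myelin marker sums were lower at day 21 by group mean in all 4 strata.

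**Figure D5:**
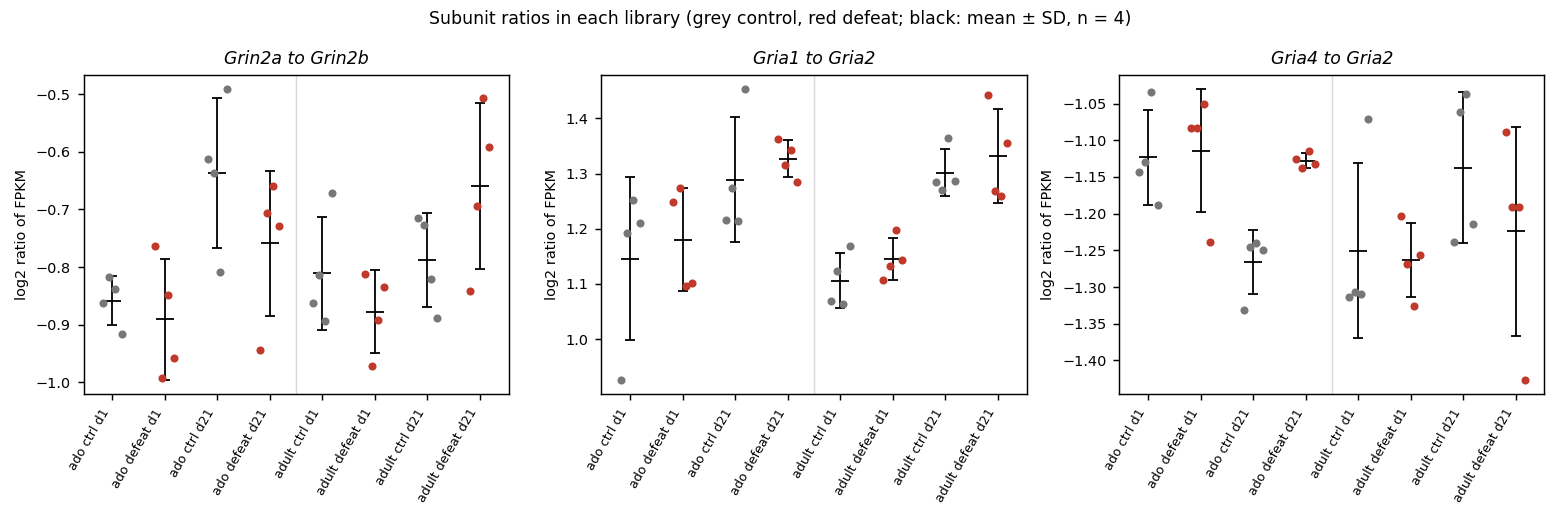
Log2 ratios of FPKM of Grin2a to Grin2b, Gria1 to Gria2 and Gria4 to Gria2 in each library by group; points are libraries (grey control, red defeat) and black bars give mean ± SD (n = 4). The Gria1 to Gria2 ratio lies between 1.063 and 1.197 in adults at day 1 and between 1.26 and 1.44 at day 21.

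Partners of these receptors were described from 5 gene lists, every gene of which was tested. In each of the 4 defeat comparisons 0 genes passed in the 23 AMPA receptor auxiliary subunits and partners, the 34 scaffold and trafficking genes, the 8 kainate, delta and GluN3B genes, the 7 metabotropic receptors and the 16 genes of glutamate and D-serine supply and clearance. Of all tested genes only 0.0547% and 0.0126% passed in adolescents at day 1 and day 21, and 0.353% and 0.00841% in adults. At such shares lists of this size would hold few or no passing genes. Median log2 changes of the lists after defeat lay between -0.07 and 0.07. Between age classes in controls 4.38% of all tested genes passed at day 1 and 6.06% at day 21, with scaffold genes among them. Homer1, which links metabotropic receptors to the postsynaptic scaffold and has an activity-induced short form, was higher in adult controls by 0.85 at day 1 and 0.53 at day 21 on the log2 scale (adjusted p = 6.06e-06 and 0.00148, edgeR). Shank2, a scaffold beneath NMDA receptors, was higher by 0.37 and 0.31, and Sorcs3, a sorting receptor of postsynaptic sites, lower by log2 changes of -0.31 and -0.29. At day 1 Camk2g, a CaMKII gene, was lower as well (-0.17), as were Grid1 (-0.21), a delta receptor gene, and the kainate receptor gene Grik5 (-0.17). At day 21 Grik3, another kainate receptor gene, was higher by 0.31.

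Averaged over the 4 strata, 8 of 34 scaffold and trafficking genes were higher in adults and 4 lower, and 7 of 23 auxiliary genes were higher and 3 lower, in a comparison that called 23.0% of all tested genes. The median log2 changes of these lists, 0.03 and 0.04, stood beside -0.01 over all tested genes. Among auxiliary genes Abhd6, a hydrolase that limits AMPA receptor delivery, was higher in adults by 0.33, and the AMPA receptor partners Shisa7 and Shisa9 by 0.20 and 0.21. Nptx1, a pentraxin that gathers AMPA receptors, was higher by 0.29 and the synaptic adhesion gene Lrrtm2 by 0.18. Shisa8 was lower, by a log2 change of -0.31 (adjusted p = 0.0019, edgeR). Among scaffold and trafficking genes Homer1 was higher by 0.74, Shank2 by 0.38 and Homer2 by 0.24, and Sorcs3 (-0.28), Camk2b (-0.13) and Camk2g (-0.10) were lower. Grik3 was higher by 0.16, and Grid1 (-0.13) and Grik5 (-0.08) were lower. The metabotropic receptor genes Grm3 and Grm8 were higher by 0.14 and 0.12. Of the supply genes, the transporter genes Slc38a2, Slc1a4 and Slc38a1 were higher by 0.20, 0.10 and 0.08. In controls alone Abhd6 was higher by 0.34 at day 1 and 0.37 at day 21, Shisa9 by 0.20 and 0.28 and Shisa7 by 0.15 on both days, Shisa8 was lower at day 1 (-0.57) and Nptx1 higher at day 21 by 0.44. Adar and Adarb1, named after their values were seen because Adarb1 encodes the main editor of the Gria2 Q/R site shown above, were higher in adults by 0.09 and 0.08 (adjusted p = 0.00320 and 0.0121, edgeR).

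Between days in adolescents, 4 scaffold and trafficking genes rose and 1 fell of 34, in a comparison that called 4.32% of all tested genes. Homer1 rose by 0.46, Ptpn5, the phosphatase STEP that acts on NMDA receptors, by 0.27, Dlgap2 by 0.18 and Dlg1, which encodes the scaffold SAP97, by 0.16 on the log2 scale. Camk2g fell by 0.23, with an adjusted p of 4.33e-05 (edgeR). Of the other lists, Cacng3, a TARP auxiliary subunit of AMPA receptors, rose by 0.17 and Grm5, the metabotropic receptor mGluR5, by 0.18. Shisa8 fell by 0.49, Grik4 by 0.42 and the glycine transporter gene Slc6a9 by 0.23. In adolescent controls alone Homer1 rose by 0.48, while Camk2g fell by 0.23, Shisa8 by 0.59 and Grik4 by 0.49. In adults Cacng5, Shisa7 and Grm4 rose, by 0.35, 0.14 and 0.38, and no gene of the 5 lists fell. These were 2 of 23 auxiliary genes and 1 of 7 metabotropic receptors, with 0 in the other 3 lists, beside 1.72% of all tested genes. In adult controls alone Cacng5 rose by 0.42 and Grm4 by 0.40. The myelin and neighbouring-tissue differences given above belong to the same comparisons.

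The genes most like each receptor gene across the 32 libraries were found by Pearson's r of log2 CPM among 13975 genes. These points share library preparation and dissection, so the values are a description. Grin2c, the GluN2 gene that astrocytes also express, was most like Acsbg1, a gene of lipid metabolism in glia, with r = 0.915, then mt-Cytb at 0.862 and mt-Nd4l at 0.858, both mitochondrial. Gria3 was most like Cacna2d1, a calcium channel subunit, at 0.925, and far less like Ralgapa1 at 0.774 and Efr3a at 0.764. For Grin2a the leading genes were Camk1d at 0.832, Nefl at 0.819 and Gria1 at 0.805, and for Gria1 they were Mmd at 0.859, Myo5b at 0.853 and Matn2 at 0.833. Grin2b ran with Gabrb1 at 0.816, Gpr22 at 0.813 and Akap6 at 0.804, and Grin3a with Timp2 at 0.855, Ccn3 at 0.833 and Epha5 at 0.827. Gria2 ran with Atrx at 0.848, Tnr at 0.809 and Fmr1 at 0.807. The values were lower for Grin1 (Entrep3 0.751, Fhl2 0.729, Ap2a1 0.726), Grin2d (Ppm1m 0.748, Pitpnm1 0.719, Camk2n2 0.711) and Gria4 (Chrm3 0.672, Ntm 0.668, Wdr11 0.663). All these values keep the differences between groups. With group means removed, r was 0.566 for Grin1 with Entrep3 and 0.488 for Gria4 with Chrm3. It was 0.763 for Grin2d with Ppm1m, 0.910 for Grin2c with Acsbg1 and 0.912 for Gria3 with Cacna2d1.

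Among the receptor genes themselves, the pair most alike was Grin2a and Gria1, with r = 0.784 after group means were removed. Grin2b and Gria1 followed at 0.728, and Grin2c ran against both Gria1 at -0.570 and Grin2a at -0.541 (n = 32 libraries). With group means left in, r was 0.805 for Grin2a with Gria1 and 0.551 for Grin2b with Gria1, but -0.0913 and -0.0284 for Grin2c with Gria1 and Grin2a. Grin1 was only weakly related to the GluN2 genes, with within-group values of 0.326 for Grin2d, 0.262 for Grin2a, 0.117 for Grin2c and 0.035 for Grin2b. Over the 32 libraries Grin2c had r = 0.776 with the microglia marker score and 0.468 with the astrocyte score. With the score of pallial excitatory neurons r was 0.757 for Grin3a, 0.58 for Gria3 and 0.492 for Grin2b. It was below 0 only for Grin2c, at -0.469. Grin2b had r = -0.657 with the blood score, Gria2 -0.715 with the vessel score and Grin3a -0.652 with that of striatum and central amygdala. Grin2c ran the other way, at 0.356 with blood, 0.467 with vessels and 0.357 with striatum and central amygdala. Only part of the pairs of gene and score is given here.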

How the data were processed

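Polyadenylated RNA of 32 mouse libraries, 8 groups of 4, was analysed from the deposited table of raw read counts and FPKM values, both made by the authors. Per the submitters' processing notes, cutadapt 1.9, HISAT2 2.0.4, StringTie 1.3.4d and edgeR were used, and the build named there is hg38, a human one. The gene identifiers are mouse ones, so positions from the table carry no build. The tests used edgeR 4.0.16 under R 4.3.3 on the counts as deposited. In all, 23778 genes passed filterByExpr, TMM factors ran from 0.9743 to 1.022, and 8 group means were fitted with 24 residual degrees of freedom. Comparisons were contrasts tested by quasi-likelihood F tests, 2-sided, adjusted by Benjamini-Hochberg over all tested genes. SEs are the absolute log2 change over the square root of F, and 95% intervals use the t distribution. CPM carry the TMM factors. The test was also run on simulated counts drawn with the spread of the same fit, and no result here rests on that run. Depth, 53885799 to 82208892 counts, leaves counting error small for these genes. Alternatives used DESeq2 1.42.0 and limma 3.58.1 on log2(FPKM + 0.1) and log2(FPKM + 1), among others.

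The members and lists were chosen with earlier results of these data known. Receptor genes were always named; of each list, up to 6 passing genes per comparison, smallest p leading, and for likeness the 3 genes with the highest r among those with a mean of at least 1 CPM. Sequences are from GENCODE M21 on GRCm38 and were not joined to the table's coordinates. A gene that the naming rule would include and a sequence are not reported here.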

Additional observations from a re-analysis of the deposited data

Results flagged for a closer look

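In each group of 4 libraries the highest and lowest value of each receptor gene was checked for its gap to the nearest other library relative to the group's range (Dixon's criterion at the 95% level). Of 80 combinations of gene and group, 5 had such a library, and chance alone gives about 1 in 20 groups such a library. Gria3 was high in adolescent control day 1 replicate 2, at 266.6 CPM, and low in adult defeat day 1 replicate 1, at 229.3 CPM. Gria1 was low in that same adult library, at 457.2 CPM, and high in adult defeat day 21 replicate 4, at 605.7 CPM. Gria2 was low in adolescent control day 1 replicate 3, at 515 CPM.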

How the results depend on the processing

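No receptor gene was called for defeat in any of 782 values recomputed over 12 other settings and with each of the 32 libraries left out (lowest adjusted p = 0.229, edgeR; log2 -0.23 to 0.20). The setting without libraries above 100 CPM of Ttr could not be fitted for adolescents at day 1. Of 194 recomputed counts of called receptor genes, 170 stayed within 1.5 times the reported count. Most reported counts were 0, and each 0 that stayed 0 is among the 170. That share therefore says little about how stable the calls were, and a count that stayed the same can stand for another gene. The cause of the differences below was not tested.

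For age class in controls at day 1 the count of 1 became 0 when the groups compared were fitted alone and 0 without libraries above 100 CPM of Ttr, and 2 with the astrocyte score as a covariate, a setting chosen after seeing the data. Of all tested genes 4.38% passed in the main fit, 1.39% in the groups alone and 0.764% without those libraries. With the astrocyte score 6.66% passed. With that score the count rose from 0 to 1 for age class in controls at day 21, day in adolescent controls, day by defeat in adults and age class by day, and from 0 to 2 for day in adults. In that order the share of all tested genes called went from 6.06% to 4.91%, 0.925% to 1.86% and 0.622% to 1.02%. For age class by day it went from 0% to 0.416%, and for day in adults from 1.72% to 3.55%. Day in adolescent controls gave 2 with a mean FPKM of at least 5, 2 with DESeq2, and 1 with limma at each pseudocount (0.1 and 1). Those settings called 4.38%, 2.44%, 2.16% and 2.26% of the genes they tested. Day in adolescents over both treatments, reported as 1, gave 0 with the Ttr covariate, 2 with upper quartile scaling, limma at each pseudocount, the groups alone and the astrocyte score, and 3 with DESeq2 and with a mean FPKM of at least 5. With the Ttr covariate 2.24% of all tested genes passed, against 4.32% in the main fit. The other settings called 4.54%, 7.39%, 7.43%, 4.97%, 5.78%, 6.32% and 11.5% of the genes they tested, in the order given. The filter on mean FPKM, which removes Grin2d and Grin3a, gave 1 for day in adults, where it called 5.54%. Age class by day gave 1 with DESeq2, where 0.357% of all tested genes passed, and 1 with the 3 marker scores, where 0.135% did. With those scores day in adolescents kept a count of 1, beside 0.13% of all tested genes, but the gene was Grin1 in place of Grin2a. The day change of Grin2c in adolescents turned to -0.040 and that of Grin1 in adults to -0.014.

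With 1 library left out, the count ran from 0 to 1 for age class in controls at day 1, day in adolescent controls and age class over the 4 strata, and from 0 to 3 for day in adolescents. Grin1 in controls at day 1 lost its call without adolescent control replicate 2 or 3 or adult control replicate 1 or 4 (log2 -0.21 to -0.15 over the 8 fits). Over the 4 strata it lost it without adolescent control day 1 replicate 3, adolescent defeat day 1 replicate 1, adolescent defeat day 21 replicate 3, adult control day 21 replicate 1 or adult defeat day 21 replicate 2 (highest adjusted p = 0.0545, edgeR). Replicate numbers did not pair the libraries: deviations of same-numbered libraries had a median r of 0.00664, and 8 of 32 libraries correlated best with their own number. The replicate block gave 2 calls for day in adolescents, adding Gria1, where 4.4% of all tested genes passed. It gave the same count as reported in the other comparisons. Leaving out the libraries high in Ttr was possible in 10 comparisons. Defeat in adolescents at day 1 was not among them, since every defeat library there was high in Ttr (812.6 to 1220 CPM).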
